A study of Mus musculus with 9 samples.

Results

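The tumour necrosis factor (TNF) superfamily was examined in activated mouse CD4 T cells that lacked CD69, had CD69 cross-linked by antibody, or were left untreated. The members were 37 genes, 17 ligands and 20 receptors, taken from the table wherever a probe set carried 1 gene symbol or synonym that matched, with the brightest probe set standing for a gene. Of these, 35 were measured (15 ligands and 20 receptors) out of 19938 genes in all, each by 1 probe set. The other 2, Tnfsf12 (TWEAK) and Tnfsf13 (APRIL), share a probe set with 3 symbols and were not analysed. Its log2 level was 7.01, 6.99 and 7.04 in CD69-/- cells, 7.18, 7.12 and 7.24 in CD69-activated cells and 7.08, 7.15 and 7.07 in wild type.

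The 9 arrays formed 3 groups of 3, and all cells were CD4-enriched spleen cells of the C57BL/6J strain, cultured for 72 h with beads coated with anti-CD3 and anti-CD28 at 10 cells per bead. The first group carried the CD69-/- genotype. The second, called CD69-activated, was wild type and received anti-CD69 antibody after 24 h and a secondary antibody that cross-links it after 48 h, each at a dilution of 1 in 200. The third was wild type without either antibody. The labels describe no culture with a control or secondary antibody alone and call the replicates biological without saying whether they were separate mice or cultures, so the p-values reflect variation among these 9 samples.

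TNF family ligands are mostly trimers on the membrane of activated lymphocytes and antigen-presenting cells, some of them shed, and their receptors are membrane proteins that signal in 2 main ways. Receptors with a cytoplasmic death domain, such as Fas, can recruit FADD and caspase-8. Many without that domain, such as 4-1BB (Tnfrsf9) and OX40 (Tnfrsf4), recruit TRAF adaptors and activate NF-kappaB. In T cells the costimulatory receptors appear or increase after antigen receptor triggering and sustain division, survival and cytokine output.

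Values are log2 expression values that the authors made with RMA, and every difference below is a difference of log2 group means from limma, a linear model fitted to all genes together. A gene was called when its Benjamini-Hochberg adjusted p over all 19938 genes was under 0.05, two-sided, with n = 3 arrays per group. The arrays give no detection call and levels are not comparable between probe sets. The median log2 level per array was 7.40 to 7.56, and Pearson's r over all probe sets was 0.996 to 0.998 within groups and 0.984 to 0.996 between them. With 3 arrays a group, precision is set by that number. Cd69 itself was at 9.65, 9.49 and 9.63 in CD69-/- cells, at 11.80, 11.84 and 11.74 in CD69-activated cells and at 12.03, 12.12 and 12.37 in wild type, a fall of 2.58 in CD69-/- cells (adjusted p = 1.22e-08). The mean log2 level of CD4 T cell markers (Cd4 and general T cell genes) lay between 11.59 and 12.14 over the 9 arrays. That of B cell markers lay between 11.55 and 12.14, so transcripts of T and B cells were present in these enriched cultures. Y-linked genes were high and Xist low in all 3 CD69-/- arrays and the reverse in the other 6, so sex and genotype cannot be told apart in comparisons with CD69-/-. Of the members, Cd40lg alone lies on the X chromosome and none on the Y chromosome.

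Most of the superfamily was higher in CD69-/- cells, and a smaller number, mainly ligands and costimulatory receptors, was lower in CD69-activated cells. In CD69-/- minus wild type 23 of 35 members rose and 2 fell, where 8.36% of all genes rose and 6.78% fell. The median difference of the members was 0.34, and that of all genes was -0.0091. In CD69-activated minus wild type 4 rose and 15 fell, where 10.1% of all genes rose and 13.7% fell, with a median of -0.080 for the members and 0.017 for all genes. With 1 array left out the 4 rises became 2 (wild-type replicate 1 or 2, or CD69-activated replicate 3) or 1 (wild-type replicate 3). Fewer than 4 also remained without CD69-activated replicate 2. More than 4 were called without CD69-activated replicate 1 or CD69-/- replicate 2, and cyclic loess normalization gave 7. Both comparisons use the same wild-type arrays.

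The differences were moderate in size. Only Tnfrsf23, Tnf and Tnfrsf8 were both called and at least 1.5-fold higher in CD69-/- cells, 3 members where 0.406% of all genes met the same rule, and no member was called and 1.5-fold lower, where 0.747% of all genes were. Called falls of at least 1.5-fold in CD69-activated cells were those of Tnfrsf9, Tnfrsf8, Tnfsf14 and Tnfsf9, 4 members where 1.3% of all genes met the rule. The 3 arrays of each group did not overlap for 27 members in CD69-/- against wild type and for 21 in CD69-activated against wild type, where they did not for 33.2% and 36% of all genes. Over all genes the calls in CD69-/- minus wild type were 1667 higher and 1351 lower, and 2555 higher and 1071 lower when array medians were subtracted, while the members stayed at 23 and 2.

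**Figure D1:**
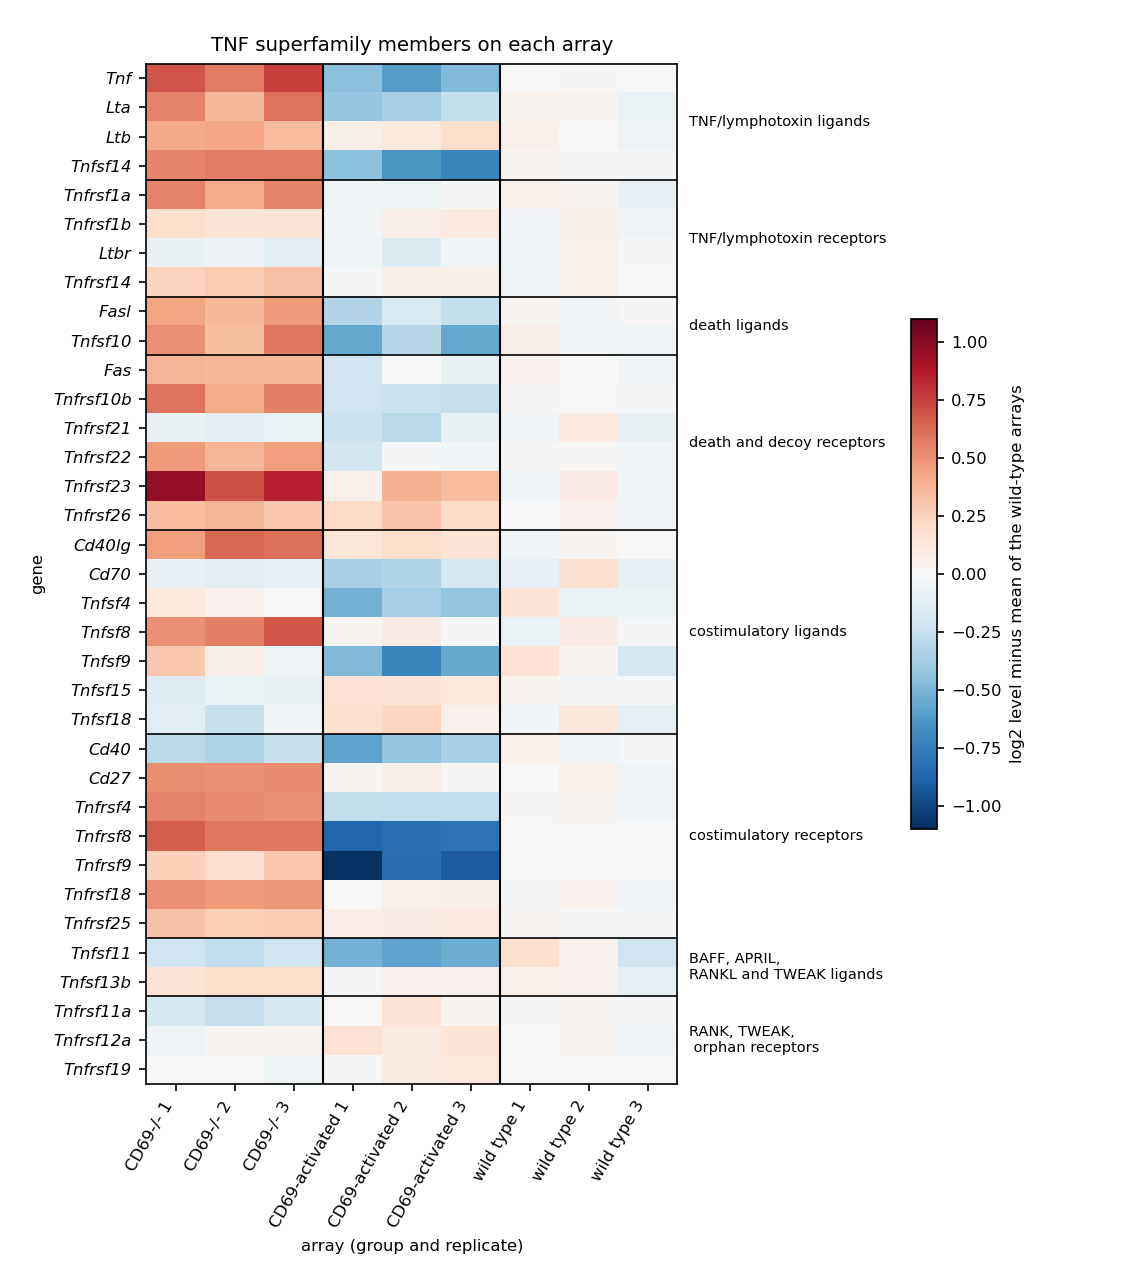
Log2 level of each measured member on each array minus the mean of its 3 wild-type arrays, with CD69-/-, CD69-activated and wild-type arrays in columns and genes in rows ordered by role. Tnf, Tnfsf14, Tnfrsf8 and Tnfrsf9 are red in the CD69-/- columns and blue in the CD69-activated columns, while Tnfrsf1a, Cd27 and Tnfrsf18 stand out in the CD69-/- columns.

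CD69-activated and CD69-/- cells differed most at Tnfrsf8, Tnfrsf9, Tnf and Tnfsf14, which were lower in CD69-activated cells by 2.72-fold, 2.29-fold, 2.28-fold and 2.24-fold. Their promoters are shown because these 4 members had the widest spread between groups. The sequences are the 250 bases before each start listed by RefSeq for build GRCm38.p6, 5′ to 3′ on the gene's strand, with RefSeq listing 2 starts for Tnfrsf9. Capitals mark 3 motifs searched on both strands, an NF-kappaB-like motif (GGGA, then any 4 bases, then CC), an AP-1-like TGANTCA and an NFAT-like TGGAAA, and marked motifs do not overlap apart from the 2 strands of a single NF-kappaB-like match in Tnfrsf9.
Tnf (chr17:35202008-35202257, minus strand): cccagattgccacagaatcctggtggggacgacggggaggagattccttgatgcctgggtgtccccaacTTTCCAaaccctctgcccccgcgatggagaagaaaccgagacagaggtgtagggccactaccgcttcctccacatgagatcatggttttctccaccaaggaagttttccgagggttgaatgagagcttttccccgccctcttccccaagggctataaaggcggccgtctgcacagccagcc
Tnfsf14 (chr17:57194182-57194431, minus strand): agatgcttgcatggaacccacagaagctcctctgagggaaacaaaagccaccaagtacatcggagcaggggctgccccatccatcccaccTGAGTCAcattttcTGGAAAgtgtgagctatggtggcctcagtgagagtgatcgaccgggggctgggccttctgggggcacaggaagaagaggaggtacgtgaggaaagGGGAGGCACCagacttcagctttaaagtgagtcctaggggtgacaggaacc
Tnfrsf8 (chr4:145315165-145315414, minus strand): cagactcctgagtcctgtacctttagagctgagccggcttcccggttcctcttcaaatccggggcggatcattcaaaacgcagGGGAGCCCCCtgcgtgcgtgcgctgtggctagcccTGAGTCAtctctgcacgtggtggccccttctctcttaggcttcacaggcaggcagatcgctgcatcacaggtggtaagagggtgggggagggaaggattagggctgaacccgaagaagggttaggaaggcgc
Tnfrsf9, start 1 (chr4:150919905-150920154, plus strand): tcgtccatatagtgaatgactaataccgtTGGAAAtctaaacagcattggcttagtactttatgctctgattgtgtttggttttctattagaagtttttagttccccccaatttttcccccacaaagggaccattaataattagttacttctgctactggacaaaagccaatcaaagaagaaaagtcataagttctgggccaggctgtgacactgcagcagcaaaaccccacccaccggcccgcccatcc
Tnfrsf9, start 2 (chr4:150927749-150927998, plus strand): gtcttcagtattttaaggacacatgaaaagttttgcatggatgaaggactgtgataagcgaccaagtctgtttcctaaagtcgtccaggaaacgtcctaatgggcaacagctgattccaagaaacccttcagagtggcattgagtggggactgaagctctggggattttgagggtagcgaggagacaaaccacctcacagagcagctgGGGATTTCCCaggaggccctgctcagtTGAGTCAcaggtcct

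The Tnfsf14 window held a match to each of the 3 motifs, the AP-1-like one at 154 to 160 bases, the NFAT-like one at 141 to 146 bases and the NF-kappaB-like one at 42 to 51 bases before the start. Tnfrsf8 had an NF-kappaB-like match at 158 to 167 bases and an AP-1-like match at 126 to 132 bases. At the second Tnfrsf9 start an NF-kappaB-like match lay at 33 to 42 bases and an AP-1-like match at 9 to 15 bases. The first Tnfrsf9 start and Tnf had an NFAT-like match only, at 216 to 221 and at 176 to 181 bases. RefSeq listed 31 windows of this length for 27 of the 35 measured members, and 7 of the 31 held the NF-kappaB-like motif, 5 the AP-1-like motif and 6 the NFAT-like motif. Over all 32851 windows the shares with each motif were 17.6%, 6.75% and 18.6%. A match is a description of the sequence and was not tested for binding.

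TNF and its closest relatives were higher without CD69 and, apart from Ltb, lower after cross-linking. Tnf, the main inflammatory cytokine of the family, had log2 levels of 10.73, 10.61 and 10.79 in CD69-/- cells, 9.58, 9.43 and 9.55 in CD69-activated cells and 10.03, 10.05 and 10.03 in wild type. The 3 groups did not overlap, with the CD69-/- arrays highest and the CD69-activated arrays lowest. Tnf rose by 0.67 in CD69-/- cells (SE 0.0525, adjusted p = 8.63e-06 by limma) and fell by 0.52 in CD69-activated cells (adjusted p = 5.36e-05). Tnfsf14 (LIGHT), a ligand of the herpesvirus entry mediator and of the lymphotoxin beta receptor, was at 9.27, 9.29 and 9.30 in CD69-/- cells, at 8.28, 8.09 and 8.01 in CD69-activated cells and at 8.76, 8.72 and 8.71 in wild type. Its groups did not overlap either, and it rose by 0.56 (SE 0.0597, adjusted p = 7.66e-05) in CD69-/- cells and fell by 0.60 (adjusted p = 4.58e-05) in CD69-activated cells.

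The lymphotoxins differed from each other. Lta, which forms a soluble trimer or joins lymphotoxin beta on the membrane, was at 8.80, 8.61 and 8.85 in CD69-/- cells, at 7.83, 7.89 and 7.99 in CD69-activated cells and at 8.29, 8.29 and 8.18 in wild type. It had the same order of groups as Tnf, with a rise of 0.50 in CD69-/- cells (adjusted p = 0.000268) and a fall of 0.35 in CD69-activated cells (adjusted p = 0.00273). Ltb, the membrane-anchoring lymphotoxin chain, was at 12.55, 12.57 and 12.48 in CD69-/- cells, at 12.20, 12.25 and 12.33 in CD69-activated cells and at 12.19, 12.13 and 12.08 in wild type. It rose by 0.40 in CD69-/- cells (adjusted p = 0.000139) and was 0.13 above wild type in CD69-activated cells (adjusted p = 0.0694). In CD69-activated cells it passed after cyclic loess (difference 0.16, adjusted p = 0.0198), with an intensity trend and a robust prior (0.0237) and without CD69-activated replicate 1 (0.0443). Ltb, Tnf and Lta are direct neighbours on chromosome 17 in the RefSeq gene order, and Ltb is the one of the 3 that did not fall in CD69-activated cells.

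Of the 4 receptors for these ligands, 3 rose in CD69-/- cells, where 8.36% of all genes did. None was called in CD69-activated cells, where 23.8% of all genes were. Tnfrsf1a, the TNF receptor with a death domain, was at 9.73, 9.59 and 9.72 in CD69-/- cells, at 9.13, 9.12 and 9.19 in CD69-activated cells and at 9.24, 9.21 and 9.09 in wild type. The CD69-/- arrays lay above the other 6, which overlapped, and the rise was 0.50 (SE 0.0512, adjusted p = 5.33e-05). The herpesvirus entry mediator Tnfrsf14 rose by 0.29 in CD69-/- cells (adjusted p = 0.000726). Tnfrsf1b, the TNF receptor without a death domain, rose by 0.16 (adjusted p = 0.0385), a call that was lost without wild-type replicate 1 or 3, without any of the 3 CD69-/- replicates and after cyclic loess. Ltbr, the lymphotoxin beta receptor of stromal and myeloid cells, was within 0.084 of wild type in both groups (adjusted p = 0.237 and 0.212), at log2 levels of 7.52 to 7.73 on the 9 arrays.

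**Figure D2:**
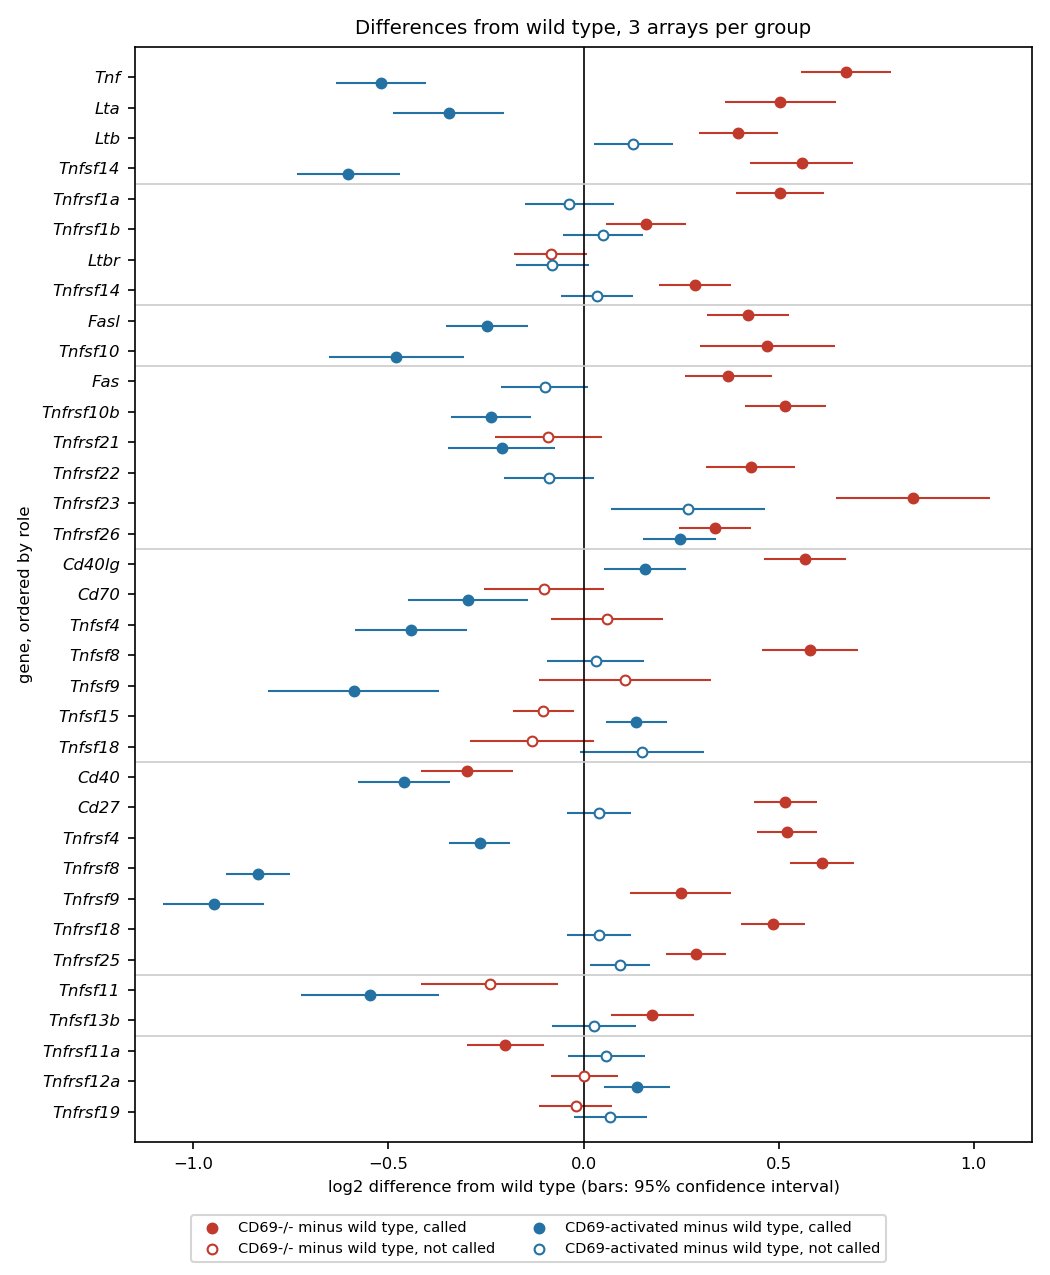
Log2 difference from wild type of each measured member in CD69-/- cells (red) and CD69-activated cells (blue), with 95% confidence intervals from limma, 3 arrays per group, filled where called. Red points run up to 0.84 at Tnfrsf23 and blue points down to -0.95 at Tnfrsf9, and the TNF receptors Tnfrsf1a and Tnfrsf1b have open blue points near 0.

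Both death ligands changed in the same directions as Tnf. Fasl, the ligand of Fas on cytotoxic and activated T cells, was at 7.68, 7.61 and 7.72 in CD69-/- cells, at 6.93, 7.08 and 6.99 in CD69-activated cells and at 7.28, 7.21 and 7.26 in wild type. Tnfsf10 (TRAIL) was at 9.80, 9.62 and 9.87 in CD69-/- cells, at 8.73, 8.98 and 8.73 in CD69-activated cells and at 9.37, 9.26 and 9.25 in wild type. In both genes the 3 groups were apart, CD69-/- highest and CD69-activated lowest. Fasl rose by 0.42 (adjusted p = 0.000111) in CD69-/- cells and fell by 0.25 (adjusted p = 0.00321) in CD69-activated cells, and Tnfsf10 rose by 0.47 (adjusted p = 0.00169) and fell by 0.48 (adjusted p = 0.0012).

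Of the 6 death and decoy receptors, 5 rose in CD69-/- cells, where 8.36% of all genes did. Fas was at 10.06, 10.05 and 10.05 in CD69-/- cells, at 9.47, 9.68 and 9.60 in CD69-activated cells and at 9.73, 9.68 and 9.64 in wild type. It rose by 0.37 in CD69-/- cells (adjusted p = 0.000418), and the CD69-activated and wild-type arrays touched at 9.68 (difference -0.10, adjusted p = 0.185). Tnfrsf10b, the mouse TRAIL receptor that carries a death domain, was at 9.28, 9.09 and 9.23 in CD69-/- cells, at 8.46, 8.44 and 8.43 in CD69-activated cells and at 8.69, 8.68 and 8.67 in wild type. Unlike Fas it was apart in all 3 groups, rising by 0.52 (adjusted p = 2.26e-05) in CD69-/- cells and falling by 0.24 (adjusted p = 0.00358) in CD69-activated cells. Tnfrsf21 (death receptor 6) was 0.090 below wild type in CD69-/- cells (adjusted p = 0.398) and fell by 0.21 in CD69-activated cells (adjusted p = 0.0314), a call that was lost when wild-type replicate 1 or 2 or CD69-activated replicate 1 or 2 was left out, and when only the arrays compared were fitted.

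The remaining 3 receptors of this group, Tnfrsf22, Tnfrsf23 and Tnfrsf26, are direct neighbours on chromosome 7, and the first pair are known in mouse as TRAIL receptors that lack a death domain. They are similar in sequence, and whether a probe set of 1 also detects another was not checked. A value given for any 1 of them is therefore uncertain. Tnfrsf23 was at 8.84, 8.58 and 8.73 in CD69-/- cells, at 7.93, 8.27 and 8.22 in CD69-activated cells and at 7.83, 7.97 and 7.83 in wild type. Its rise of 0.84 in CD69-/- cells (SE 0.0891, adjusted p = 7.10e-05) exceeded that of every other member. In CD69-activated cells it was 0.27 above wild type with overlapping arrays (adjusted p = 0.0511), and 0.37 above without CD69-activated replicate 1 (adjusted p = 0.00619). It also passed there with array medians subtracted, after cyclic loess, without the dimmest 25% of genes, with an intensity trend and a robust prior, and without CD69-/- replicate 2 (adjusted p of 0.0369 to 0.0478).

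Tnfrsf22 was at 9.63, 9.54 and 9.62 in CD69-/- cells, at 8.96, 9.14 and 9.13 in CD69-activated cells and at 9.18, 9.18 and 9.13 in wild type, and rose by 0.43 in CD69-/- cells (adjusted p = 0.000182). Tnfrsf26, whose ligand is not known, was at 11.15, 11.18 and 11.10 in CD69-/- cells, at 11.03, 11.12 and 11.01 in CD69-activated cells and at 10.81, 10.85 and 10.76 in wild type. It was the one called receptor besides Tnfrsf12a that was higher after cross-linking, with a rise of 0.34 (adjusted p = 0.00023) in CD69-/- cells and of 0.25 (adjusted p = 0.00162) in CD69-activated cells.

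Among the 7 costimulatory receptors, 6 rose and Cd40 fell in CD69-/- cells, where 8.36% of all genes rose and 6.78% fell. In CD69-activated cells 4 fell and none rose, where 13.7% of all genes fell and 10.1% rose. Tnfrsf9 (4-1BB), which is induced by T cell receptor signalling and sustains CD8 and CD4 T cells, was at 12.08, 12.00 and 12.12 in CD69-/- cells, at 10.73, 10.98 and 10.90 in CD69-activated cells and at 11.82, 11.82 and 11.81 in wild type. Tnfrsf8 (CD30), a receptor of activated T and B cells, was at 9.48, 9.39 and 9.39 in CD69-/- cells, at 7.94, 7.98 and 8.0 in CD69-activated cells and at 8.81 on all 3 wild-type arrays. Both genes were far lower in the CD69-activated arrays than in either other group, with no overlap. Tnfrsf9 fell by 0.95 (SE 0.0586, adjusted p = 1.51e-06) and Tnfrsf8 by 0.83 (SE 0.0370, adjusted p = 1.28e-07) in CD69-activated cells. In CD69-/- cells Tnfrsf8 rose by 0.61 (adjusted p = 1.90e-06) and Tnfrsf9 by 0.25 (adjusted p = 0.0142), the call of Tnfrsf9 being lost without wild-type replicate 3 (adjusted p = 0.0513) and without CD69-/- replicate 1 (0.0526) or 3 (0.0626).

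Tnfrsf4 (OX40) followed the same order with a smaller fall. It was at 12.44, 12.41 and 12.39 in CD69-/- cells, at 11.63, 11.62 and 11.62 in CD69-activated cells and at 11.90, 11.92 and 11.85 in wild type, a rise of 0.52 (adjusted p = 3.62e-06) and a fall of 0.27 (adjusted p = 0.000284). Cd27, the receptor of CD70 on naive and memory T cells, was at 12.42, 12.41 and 12.43 in CD69-/- cells, at 11.93, 11.98 and 11.92 in CD69-activated cells and at 11.90, 11.96 and 11.86 in wild type. Tnfrsf18 (GITR), which regulatory and activated T cells carry, was at 12.12, 12.08 and 12.10 in CD69-/- cells, at 11.62, 11.67 and 11.68 in CD69-activated cells and at 11.60, 11.66 and 11.58 in wild type. Cd27 and Tnfrsf18 were higher in every CD69-/- array by similar amounts, 0.52 (adjusted p = 5.05e-06) and 0.49 (adjusted p = 7.54e-06), and their CD69-activated and wild-type arrays overlapped (differences of 0.039 and 0.040). Tnfrsf25 (death receptor 3), the receptor of TL1A, rose by 0.29 in CD69-/- cells (adjusted p = 0.000183), and in CD69-activated cells its difference of 0.093 (adjusted p = 0.0796) was 0.13 and passed after cyclic loess (adjusted p = 0.0122).

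Cd40, which B cells, macrophages and dendritic cells carry, went the other way from the T cell receptors of the family in CD69-/- cells. It was at 10.66, 10.62 and 10.70 in CD69-/- cells, at 10.38, 10.52 and 10.60 in CD69-activated cells and at 11.01, 10.92 and 10.94 in wild type. It fell by 0.30 (adjusted p = 0.00279) in CD69-/- cells and by 0.46 (adjusted p = 0.000129) in CD69-activated cells. B cell markers fell in 15 of 15 cases in CD69-/- cells, by a median of 0.50. In CD69-activated cells 3 of them rose and 2 fell, with a median of -0.039. Monocyte, macrophage and dendritic cell markers fell in 15 of 19 cases in CD69-/- cells, while 4 rose and 3 fell in CD69-activated cells. Of all genes 8.36% rose and 6.78% fell in CD69-/- cells, and 10.1% rose and 13.7% fell in CD69-activated cells. The part of these cells in the Cd40 level was not tested.

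**Figure D3:**
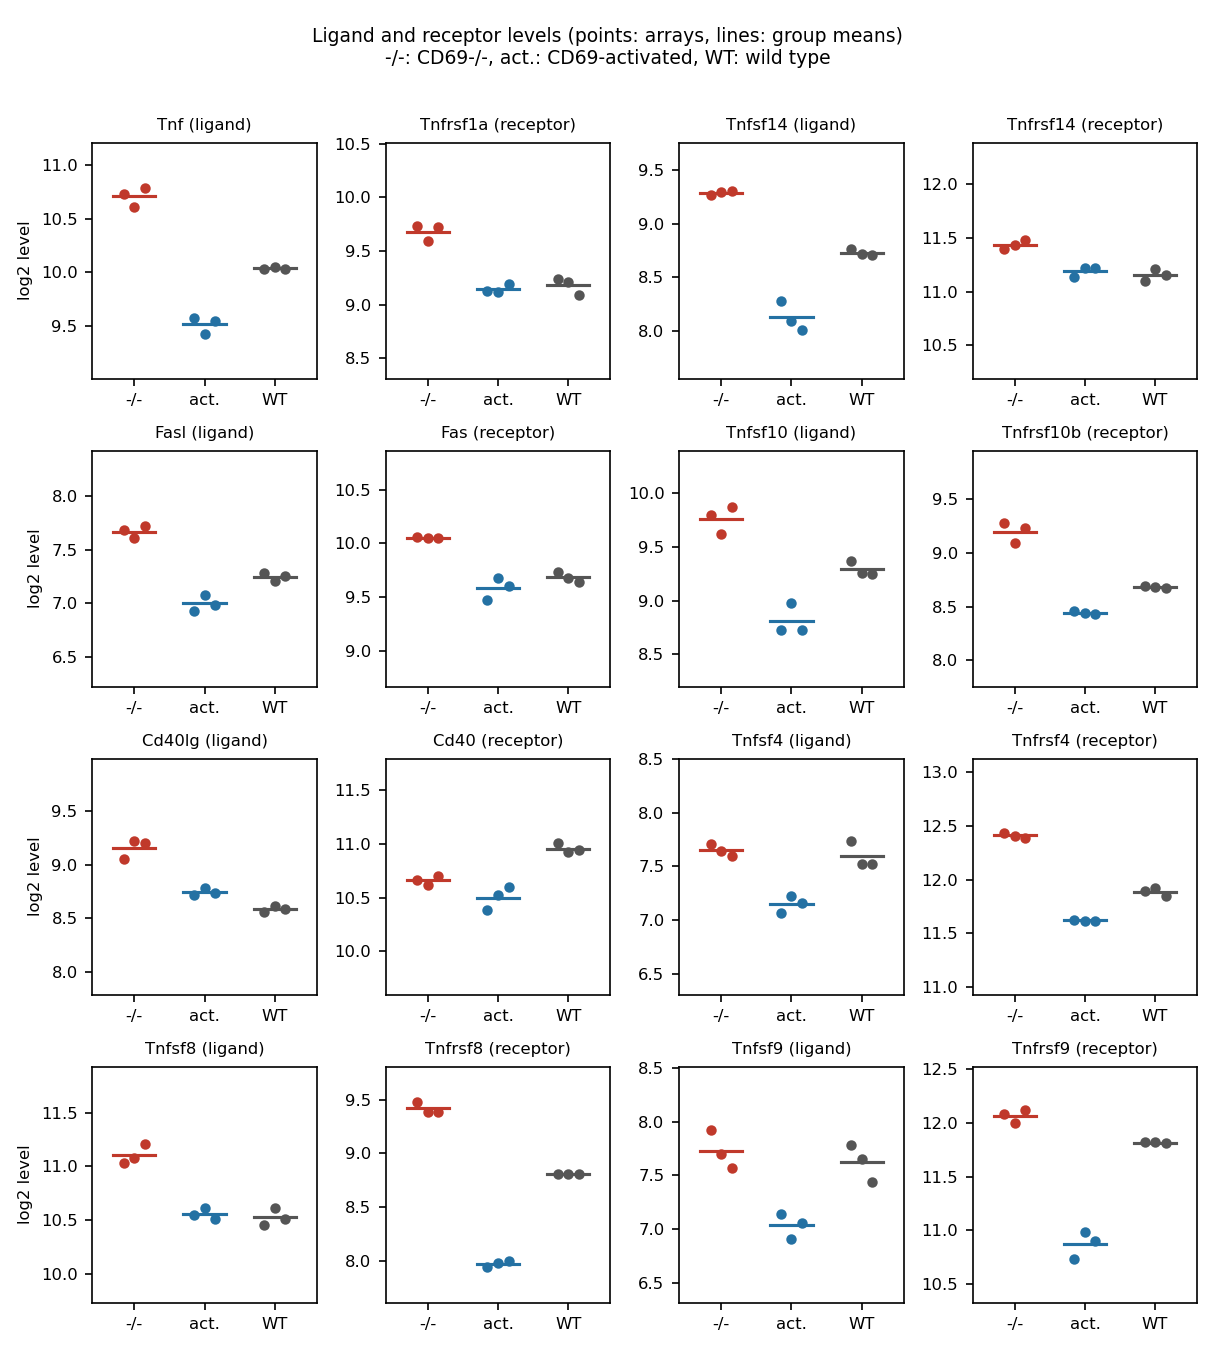
Log2 levels of 8 ligand and receptor pairs on each array (points) with group means (lines), CD69-/- left, CD69-activated middle and wild type right, on vertical axes of equal span in log2 units. Receptors such as Tnfrsf1a and Tnfrsf14 sit at the wild-type level in CD69-activated cells while their ligands Tnf and Tnfsf14 sit below it, and Tnfrsf8 and Tnfrsf9 are lowest in CD69-activated cells.

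The 7 costimulatory ligands were divided. Tnfsf8 (CD30 ligand) was at 11.03, 11.08 and 11.21 in CD69-/- cells, at 10.55, 10.61 and 10.51 in CD69-activated cells and at 10.45, 10.61 and 10.51 in wild type. Cd40lg, which helper T cells use to license B cells and dendritic cells, was at 9.05, 9.22 and 9.20 in CD69-/- cells, at 8.72, 8.78 and 8.74 in CD69-activated cells and at 8.56, 8.62 and 8.59 in wild type. These were the 2 costimulatory ligands that rose in CD69-/- cells, by 0.58 (adjusted p = 3.63e-05) and 0.57 (adjusted p = 1.49e-05). In CD69-activated cells Tnfsf8 overlapped wild type (difference 0.031), and Cd40lg was 0.16 higher (adjusted p = 0.0348), a call that was lost whenever 1 wild-type or CD69-activated array was left out (adjusted p of 0.0515 to 0.112).

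Tnfsf9 and Tnfsf4 showed the opposite arrangement. Tnfsf9 (4-1BB ligand) was at 7.92, 7.70 and 7.57 in CD69-/- cells, at 7.14, 6.91 and 7.06 in CD69-activated cells and at 7.78, 7.65 and 7.44 in wild type. Tnfsf4 (OX40 ligand) was at 7.71, 7.64 and 7.60 in CD69-/- cells, at 7.07, 7.22 and 7.16 in CD69-activated cells and at 7.74, 7.52 and 7.52 in wild type. For both, the CD69-/- and wild-type arrays overlapped and the CD69-activated arrays lay below all the others. Tnfsf9 fell by 0.59 (SE 0.0997, adjusted p = 0.0015) and Tnfsf4 by 0.44 (SE 0.0651, adjusted p = 0.000594) in CD69-activated cells, beside falls of their receptors Tnfrsf9 and Tnfrsf4. Both ligands are best known from antigen-presenting cells, and activated T cells also make them.

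Smaller differences were seen at the other costimulatory ligands. Cd70, the ligand of CD27, fell by 0.30 in CD69-activated cells (adjusted p = 0.0102) and was 0.10 below wild type in CD69-/- cells (adjusted p = 0.398). Tnfsf15 (TL1A) rose by 0.14 in CD69-activated cells (adjusted p = 0.0172), a call lost without wild-type replicate 2 or 3. Tnfsf18 (GITR ligand), at log2 levels of 5.28 to 5.76, was not called in either comparison with wild type. Tnfsf9, Cd70 and Tnfsf14 are direct neighbours on chromosome 17, and in CD69-/- minus wild type their differences were 0.11, -0.10 and 0.56.

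The ligands RANKL and BAFF and 3 further receptors make up the rest of the family. Tnfsf11 (RANK ligand), made by activated T cells and stromal cells, was at 9.34, 9.29 and 9.34 in CD69-/- cells, at 9.04, 8.98 and 9.03 in CD69-activated cells and at 9.74, 9.61 and 9.34 in wild type. The wild-type arrays were spread over a range that reached the CD69-/- level, and the CD69-activated arrays lay below all others. It fell by 0.55 in CD69-activated cells (adjusted p = 0.000559). In CD69-/- cells it was 0.24 below wild type (adjusted p = 0.0694), and without wild-type replicate 3 it was 0.35 below (adjusted p = 0.00121). It also passed there after cyclic loess (0.0295) and with an intensity trend and a robust prior (0.0480). Its receptor Tnfrsf11a (RANK), of osteoclast precursors and dendritic cells, fell by 0.20 in CD69-/- cells (adjusted p = 0.0108) and was 0.058 above wild type in CD69-activated cells (adjusted p = 0.394).

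Tnfsf13b (BAFF), the B cell survival factor, rose by 0.18 in CD69-/- cells (adjusted p = 0.0316), a call lost without wild-type replicate 3, without any of the CD69-/- replicates and when only the arrays compared were fitted. Tnfrsf12a, the receptor of TWEAK, rose by 0.14 in CD69-activated cells (adjusted p = 0.0255), lost when replicate 1 or 3 of either group was left out. Tnfrsf19 (TROY) was within 0.069 of wild type in both groups (adjusted p = 0.821 in CD69-/- and 0.281 in CD69-activated cells), and passed in CD69-activated cells without CD69-activated replicate 1 (difference 0.11, adjusted p = 0.0494).

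Set side by side, 16 chosen pairs of a ligand with its receptor were compared. Other measured pairs, such as Ltb with Ltbr and Tnfsf10 with Tnfrsf22 or Tnfrsf23, were left out, so the counts depend on this choice. In CD69-/- minus wild type both partners rose in 8 pairs, among them Tnf with each TNF receptor, Fasl with Fas, Tnfsf10 with Tnfrsf10b and Tnfsf8 with Tnfrsf8, and Cd40lg and Cd40 were the 1 pair with opposite calls. In CD69-activated minus wild type both partners fell in 3 pairs, Tnfsf10 with Tnfrsf10b, Tnfsf4 with Tnfrsf4 and Tnfsf9 with Tnfrsf9, and Cd40lg and Cd40 again had opposite calls. In 11 pairs 1 partner was called and the other was not, for example Tnf without either TNF receptor and Tnfrsf8 without Tnfsf8. Pairs that share a gene are not independent of each other. In CD69-/- minus wild type 9 of 15 ligands and 14 of 20 receptors rose, where 8.36% of all genes did. In CD69-activated minus wild type 9 of 15 ligands and 6 of 20 receptors fell, where 13.7% of all genes did. With so many members called, pairs with both partners called would be met without any link between partners. Whether partners changed together was not tested.

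The direct comparison of CD69-activated with CD69-/- cells uses arrays of both comparisons above and adds the tests between the antibody-treated and the deficient cells. In it 26 of 35 members were lower and 4 higher in CD69-activated cells, beside CD4 T cell markers that were lower in 10 of 10 cases, where 21% of all genes were lower, 21.6% higher and 42.6% called in either direction. With the added rule of 1.5-fold 10 members were lower and none higher, where 2.64% of all genes were lower and 1.38% higher. All 15 measured ligands were called, 13 lower and 2 higher. Tnfrsf8 fell by 1.44 (SE 0.0370, adjusted p = 7.36e-10), Tnfrsf9 by 1.20 (adjusted p = 9.34e-08), Tnf by 1.19 (adjusted p = 4.42e-08) and Tnfsf14 by 1.16 (adjusted p = 1.24e-07), the genes whose promoters are printed above. The ligands Tnfsf18 and Tnfsf15 rose by 0.28 (adjusted p = 0.00875) and 0.24 (adjusted p = 0.000289), and the receptors Tnfrsf11a and Tnfrsf12a by 0.26 (adjusted p = 0.000852) and 0.13 (adjusted p = 0.0168). The call of Tnfrsf12a was lost without CD69-/- replicate 1 (difference 0.11, adjusted p = 0.0691). Cd40 fell by 0.16 (adjusted p = 0.0316). Its difference was -0.084 after cyclic loess (adjusted p = 0.172) and -0.10 without CD69-activated replicate 1 (adjusted p = 0.101), and the call was also lost without CD69-activated replicate 2, without CD69-/- replicate 1 or 3 and with only the arrays compared. Tnfrsf25 fell by 0.20 (adjusted p = 0.001) and by 0.12 after cyclic loess (adjusted p = 0.0155). The call of Cd70 (-0.19, adjusted p = 0.0436) was lost without any 1 of the CD69-/- replicates or CD69-activated replicate 1 or 2. That of Tnfsf13b (-0.15, adjusted p = 0.0285) was lost without CD69-/- replicate 2 or 3 or CD69-activated replicate 1. The count of 15 called ligands includes both.

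Markers of the cell types in the culture also differed between the groups, some in the direction of the members and some against it, and are given beside them. In bulk RNA fewer cells of a type and less RNA per cell cannot be told apart. The CD4 T cell markers are Cd4, which rose by 0.37 in CD69-/- cells, and general T cell genes that CD8 T cells also carry. The list therefore does not separate CD4 from CD8 T cells. Of its 11 genes 10 were measured, and all 10 were called higher in CD69-/- cells, by 0.32 to 0.62. The mean log2 level of the list was 12.11 to 12.14 in CD69-/- arrays and 11.61 to 11.69 in wild-type arrays. Of the members, 16 lay within that range of marker differences, 17 below it and 2 above it, Tnfrsf23 and Tnf. The CD8 genes Cd8a and Cd8b1 rose by 0.61 and 0.43. The mean level of the B cell markers was 11.55 to 11.64 in CD69-/- and 12.09 to 12.14 in wild-type arrays, while that of monocyte, macrophage and dendritic cell markers was 7.40 to 7.49 in CD69-/- and 7.91 to 7.95 in wild-type arrays, with 15 of 19 lower and none higher. Erythroid markers fell in 3 of 5 cases, neutrophil and mast cell markers in 3 of 12, plasma cell markers in 4 of 8 with 2 higher, and NK cell markers in 3 of 8 with 3 higher. Of all genes 8.36% rose and 6.78% fell in this comparison. The part of these markers in the members' rise was not tested.

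**Figure D4:**
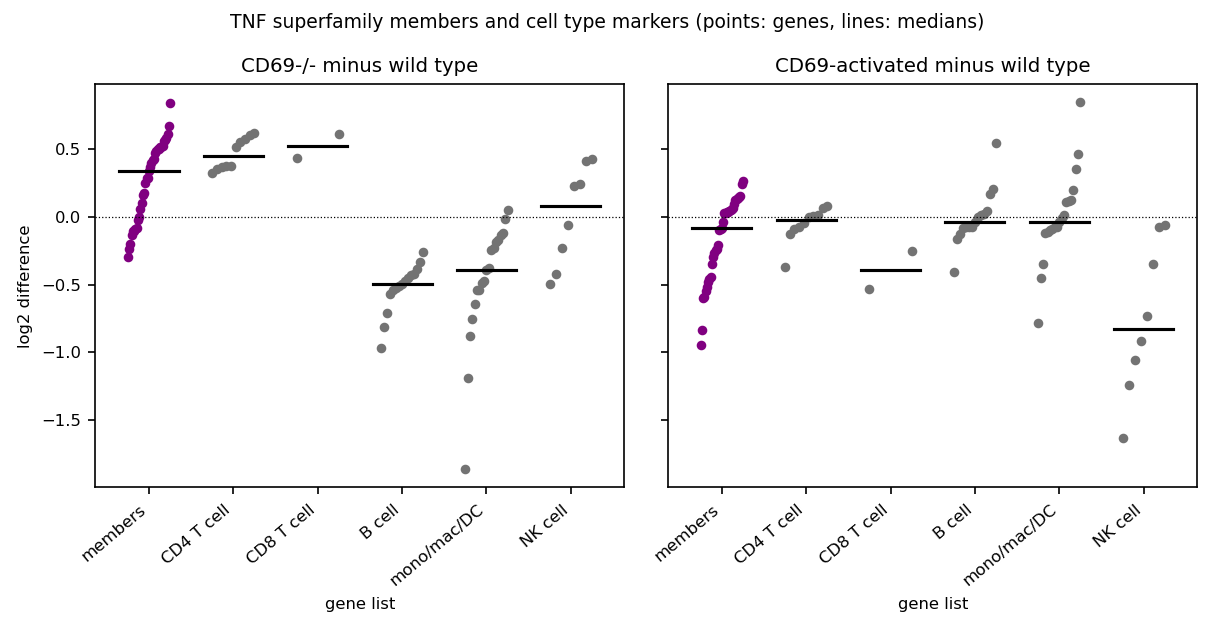
Log2 differences from wild type of the members (purple) and of cell type markers (grey), each point a gene and each line a median, in CD69-/- cells (left panel) and CD69-activated cells (right panel). In CD69-/- cells the members' median of 0.34 stands beside 0.45 for CD4 T cell markers and -0.50 for B cell markers, and in CD69-activated cells the members' median of -0.080 stands beside -0.020 and -0.039.

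In CD69-activated cells CD4 T cell markers had a median difference of -0.020 and lay between -0.37, for Thy1, and 0.082, with 2 of 10 lower. The mean level of the list was 11.59 to 11.62 in CD69-activated and 11.61 to 11.69 in wild-type arrays. Below the lowest of these marker differences lay 9 members, Tnfrsf9, Tnfrsf8, Tnfsf14, Tnfsf9, Tnfsf11, Tnf, Tnfsf10, Cd40 and Tnfsf4. Only 5 of them, Tnfrsf9, Tnfrsf8, Tnfsf14, Tnfsf9 and Tnfsf11, lay below both CD8 genes. Below the lowest NK cell marker, at -1.63, lay 0 members. Cd8a fell by 0.54 and Cd8b1 by 0.25, and NK cell markers fell in 6 of 8 cases with a median of -0.83, so that their mean level was 7.83 to 7.92 in CD69-activated and 8.59 to 8.64 in wild-type arrays. Of the monocyte, macrophage and dendritic cell markers 4 rose and 3 fell. Neutrophil and mast cell markers rose in 1 and fell in 4 of 12 cases, plasma cell markers fell in 5 of 8 and erythroid markers rose in 1 and fell in 1 of 5. Of all genes 10.1% rose and 13.7% fell in this comparison. The part of CD8 and NK cells in the members' fall was not tested.

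In CD69-activated minus CD69-/- the CD4 T cell markers fell in 10 of 10 cases, with a median of -0.50 beside -0.44 for the members. Of the members 16 lay within the range of these marker differences, 15 above it and 4 below it, which were Tnfrsf8, Tnfrsf9, Tnf and Tnfsf14. The same 4 lay below both CD8 genes, and 0 members lay below the lowest NK cell marker, at -1.88. B cell markers rose in 15 of 15 cases (median 0.52), and monocyte, macrophage and dendritic cell markers rose in 15 and fell in 2 of 19. Both CD8 genes and 6 of 8 NK cell markers fell (medians of -0.92 and -0.62). Of all genes 21.6% rose and 21% fell in this comparison. The part of these markers in the members' fall in this comparison was not tested.

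Genes that carry the signal inside the cell were taken from 3 lists. Of 25 measured adaptors and regulators of TNF receptors, 7 rose and 2 fell in CD69-/- cells (median 0.052), a called share of 36% where 15.1% of all genes were called. In CD69-activated cells 2 rose and 3 fell (median 0.014), a share of 20% where 23.8% of all genes were called. Traf1, an adaptor that costimulatory receptors induce, rose by 0.30 in CD69-/- cells and by 0.17 in CD69-activated cells. Tnip1 and Tnfaip3, which restrain NF-kappaB, rose by 0.30 and 0.21 in CD69-/- cells, and the adaptor Traf5 fell by 0.33. In CD69-activated cells the death receptor adaptor Fadd fell by 0.22, the ubiquitin ligase Birc3 by 0.18 and Traf4 by 0.16.

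NF-kappaB genes, 10 of 11 measured, rose in 5 cases and fell in 1 in CD69-/- cells (median 0.14), led by the inhibitors Nfkbid (0.25) and Nfkbia (0.20), a called share of 60% beside the 15.1% of all genes. In CD69-activated cells 2 fell and none rose (median -0.055), 20% beside the 23.8% of all genes, Nfkb2, the precursor of the non-canonical pathway, by 0.39 and Nfkbib by 0.23. Of 8 measured death signalling genes 2 rose and 1 fell in CD69-/- cells, Mlkl by 0.27, the caspase-8 inhibitor Cflar by 0.19 and Casp9 with a difference of -0.15. In CD69-activated cells 3 fell and none rose, so that 37.5% of this list was called in each comparison with wild type. The falls were those of the necroptosis kinase Ripk3 by 0.49, its substrate Mlkl by 0.48 and Casp8 by 0.16.

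Family genes outside the members, 9 in all, held 3 that fell and none that rose in CD69-/- cells, 33.3% beside the 15.1% of all genes. Tnfrsf13b (TACI) and Tnfrsf13c, the BAFF receptor of B cells, fell by 0.44 and 0.43 beside the fall of the B cell markers, and Ngfr fell by 0.44. In CD69-activated cells Relt fell by 0.49 and Tnfrsf11b (osteoprotegerin), the decoy for RANK ligand, rose by 0.18, together 22.2% of the list beside the 23.8% of all genes. All adjusted p-values behind these list counts are from the same limma fit over all genes.

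Members that lie side by side in the genome did not always have like differences. In the RefSeq gene order 23 of the 37 members lay in 9 clusters of 2 or more with at most 5 other coding genes between neighbours. Tnfrsf8 and Tnfrsf1b are direct neighbours on chromosome 4, where in CD69-activated minus wild type the first was at -0.83 and the second at 0.050. In CD69-/- minus wild type both rose, by 0.61 and 0.16. The neighbours Ltb, Tnf and Lta also all rose in CD69-/- cells, as did Tnfrsf4 with Tnfrsf18 and Tnfrsf22 with Tnfrsf23 and Tnfrsf26. The adjacent Tnfsf4, Tnfsf18 and Fasl on chromosome 1 were at 0.060, -0.13 and 0.42 in CD69-/- minus wild type. On chromosome 6, Cd27, Ltbr and Tnfrsf1a lie with 1 coding gene between each, and their differences in that comparison were 0.52, -0.084 and 0.50.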

How the data were processed

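The authors deposited log2 expression values of 1-colour Affymetrix arrays. The submitters' processing notes name RMA, oligo and R 2.12.1, with no settings or annotation. The platform annotation gave 1 symbol for 21789 of 35556 probe sets, several for 1621 and none for 12146. Symbols were updated by gene ID for 21698 probe sets, and the brightest probe set stood for each of 19938 genes. Values as deposited were fitted with limma 3.58.1 in R 4.3.3 (3 group means over 9 arrays, eBayes, 6 residual and 4.78 prior degrees of freedom), tested first on simulated data. Members and lists were chosen with earlier results of these data known. Members called with a difference of at least 0.3 from wild type are given on every array, and up to 4 called genes of a pathway list by size. RefSeq supplied neighbours and promoters. Of the members 34 of 35 lay above the dimmest 25% of genes, which 1 alternative leaves out. Figures used matplotlib 3.10.9.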

Additional observations from a re-analysis of the deposited data

How the results depend on the processing

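Counts of called members kept within 1.5 times of those reported under most alternatives. In CD69-/- minus wild type 20 to 23 rose and 2 or 3 fell when 1 array was left out, and in CD69-activated minus wild type 14 or 15 fell. The 4 rises in CD69-activated cells became 7 after cyclic loess and 1 to 5 when an array was left out, and the cause was not tested. In CD69-activated minus CD69-/- 23 to 27 fell and 3 to 5 rose with an array left out. Requiring at least 1.5-fold left 3 rises and 0 falls in CD69-/- minus wild type, 0 and 4 in CD69-activated minus wild type, and 0 and 10 in CD69-activated minus CD69-/-. No member's called difference changed sign under any alternative. The labels do not pair same-numbered replicates. Deviations of same-numbered arrays from their group means correlated at -0.242 to 0.142 over all genes, which cannot exclude a pairing that affects some genes. With a replicate block 21 rose and 2 fell, 3 rose and 14 fell, and 4 rose and 25 fell in these comparisons, and the block is not part of the design. Leaving out X and Y chromosome genes, added after seeing the data, gave 22 and 2, 3 and 15, and 4 and 25. That setting takes out Cd40lg itself, which was called in each comparison, and no call of another member changed. It does not separate sex from genotype. Probe sets near background understate differences, and 3 arrays per group limit what small differences can be called.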
